A study of Mus musculus with 6 samples.

Results

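The 10 genes described here are 7 genes known for promoter methylation in prostate cancer (GSTP1, CAV1, CAV2, CD44, RASSF1, APC and RARB) and the 3 DNA methyltransferases that place and maintain this mark (DNMT1, DNMT3A and DNMT3B). They were chosen by name, through their human Ensembl identifiers, from the 60649 genes of the count table, and all 10 had enough reads to be tested. The choice was made with earlier results of these data known. RNA was measured in 6 flank tumors of LAPC-4, a human hormone-sensitive prostate cancer line with wild-type androgen receptor, which were grown in male SCID mice bought at 6 to 8 weeks of age. All mice ate the high glycemic index (HiGI) Western diet before and after LAPC-4 injection, and were then randomized, at a mean tumor volume of 200 mm3, to stay on it or to change to a low glycemic index (LoGI) Western diet. The 3 HiGI tumors (numbered 16, 20 and 26) came from mice fed sucrose as the main carbohydrate. The 3 LoGI tumors (numbered 19, 27 and 28) came from mice fed Hylon-VII, a high-amylose starch, with maltodextrin. Carbohydrate supplied 48% of the energy of either diet, and mice were sacrificed when the tumor reached 800 mm3. The tumors model 1 cell line in a host that lacks B and T cells. Methylation itself was not measured, so that the values below are RNA levels only.

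DNA methylation adds a methyl group to cytosines that precede guanines, and dense methylation of a promoter is generally found where a gene is kept off. DNMT1 copies the pattern to the new strand at DNA replication, while DNMT3A and DNMT3B can methylate sites that carried no mark before. In prostate cancer the promoter of GSTP1, which encodes a detoxifying glutathione transferase, is the best known target, and those of RASSF1, APC and RARB are often methylated beside it. CAV1 and CAV2, neighbouring genes that encode the coat proteins of caveolae, and CD44, which encodes the hyaluronan receptor, have also been described as methylated in prostate tumors.

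Libraries held between 18749813 and 21550812 reads on genes, and their TMM scaling factors lay between 0.964 and 1.03. No tumor repeated another of its diet, since chi-square divided by its degrees of freedom (about 1 if a library were counted again) was 4.91 or more for each such pair. Values below are reads, or normalized counts (reads scaled to a common library size after TMM normalization). The diets were compared over 24545 genes with edgeR's quasi-likelihood test and Benjamini-Hochberg adjustment, and a gene was called at an adjusted p under 0.05 when its log2 fold change was also 1 or more in size. By this rule 3.38% of the genes tested were lower and 0.0733% higher on the LoGI diet. Levels were not compared between genes as amounts of RNA, since gene lengths were not used here. Ratios and shares of reads between genes serve only to compare tumors. Markers of prostate epithelium and of other cell types were not looked up, because genes are listed by identifier without symbols, and their part in the differences below was not tested.

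Past the threshold, 3 of the 10 genes were lower (CAV1, CAV2 and CD44) and 0 were higher in LoGI tumors, in edgeR's quasi-likelihood test. All 3 belong to the 7 genes known for promoter methylation, while 0 of the 3 methyltransferases passed. With no minimum fold change the counts were the same, 3 lower and 0 higher, beside 4.36% and 0.367% of all genes tested. Because earlier results were known when the genes were chosen, these shares are given for scale and do not test such genes as a class. Among the 10 genes, GSTP1 and DNMT3A had an unadjusted p under 0.05 without passing after adjustment, in opposite directions. The median log2 fold change was -0.14 over the 10 genes and 0.0085 over the 7 genes known for promoter methylation, beside 0.00335 over all genes tested, and it was -0.19 over the 3 methyltransferases. A median near 0 hid a wide range among the 7 genes, from -6.89 to 0.26. Normalized counts of the diets did not overlap for 4 of the 10 genes (CAV1, CAV2, CD44 and DNMT3A), with the LoGI tumors lower each time. Among all genes tested 18.5% did not overlap, 10.9% being lower and 7.59% higher in LoGI tumors. In bulk tumor RNA, fewer cells that express a gene and less RNA per cell cannot be told apart. Reads shared by the human and mouse genomes were kept for all 10 genes, CAV1, CAV2 and CD44 included. The share of them that came from mouse cells was not tested.

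**Figure D1:**
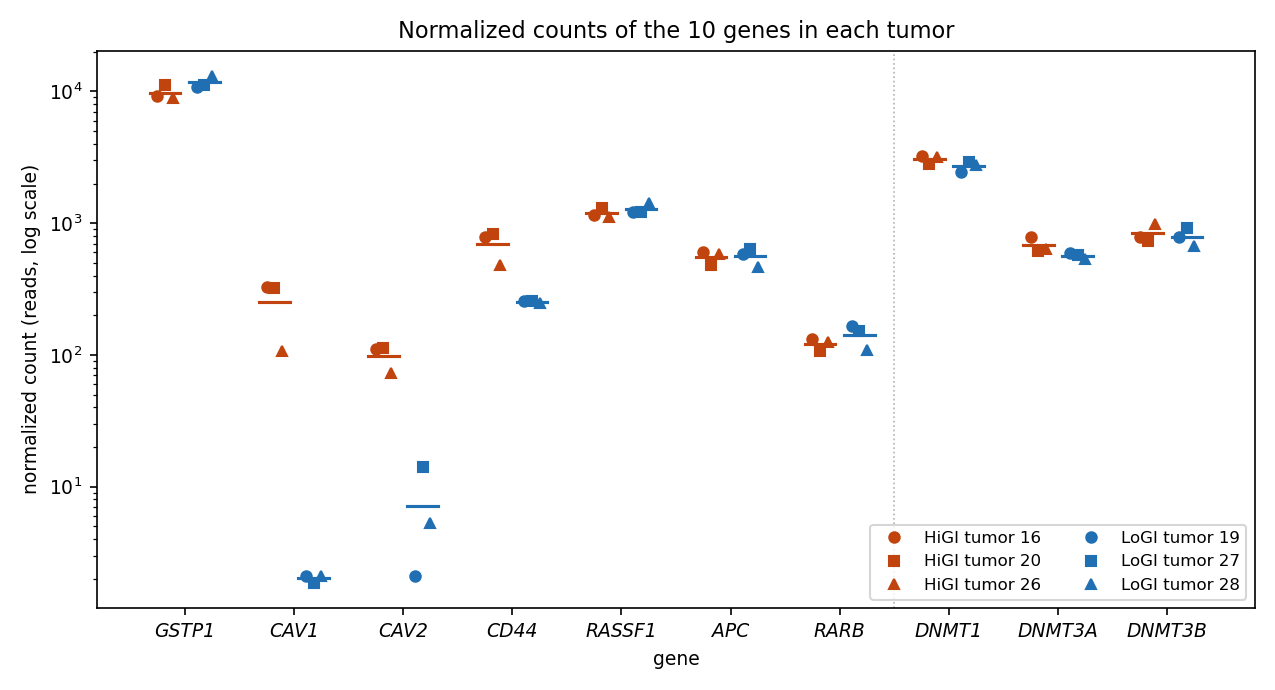
Normalized counts (reads, log scale) of the 10 genes in each of the 3 HiGI and 3 LoGI tumors, with a horizontal line at each diet's mean; the dotted line sets off the 3 methyltransferases. CAV1, CAV2 and CD44 are lower in every LoGI tumor than in any HiGI tumor, with HiGI tumor 26 the lowest of the HiGI tumors on each of them.

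CAV1 (ENSG00000105974.13), which encodes caveolin-1, the main structural protein of caveolae, was almost unread in LoGI tumors. On the HiGI diet it had 358 reads in tumor 16, 325 in tumor 20 and 101 in tumor 26, against 2 reads in each LoGI tumor. The 3 LoGI tumors were thus at the same very low count, while the HiGI tumors were all high but unequal, tumor 26 having 32.9% of the mean normalized count of tumors 16 and 20. The HiGI mean was 253 ± 126 normalized counts (SD, n = 3), and the LoGI mean was 2.02 ± 0.131 (SD, n = 3). With 2 reads in each LoGI tumor, the LoGI SD reflects library scaling alone and not the precision of the count. The log2 fold change was -6.89 (adjusted p = 3.75e-07, edgeR's quasi-likelihood test). Because 2 reads is below the 3 reads taken as the floor of detection, this size is imprecise. Summed over tumors, 784 reads against 6 give a HiGI to LoGI ratio of 128, with an exact binomial 95% interval of 58.6 to 350.2 that covers counting error only. The gap was wide at its narrowest point as well, since the lowest HiGI tumor had 51.1 times the normalized count of the highest LoGI tumor. A larger prior count of 2 brought the log2 fold change to -5.99, and without HiGI tumor 26 it was -7.25. With the lowest HiGI count of CAV1 itself taken as a minimum, which places CAV1 in the count, 11141 genes reached 101 reads in all 3 HiGI tumors and 19 of them had 3 reads or fewer in all 3 LoGI tumors. Of the 24545 genes tested, 79 had a more negative log2 fold change.

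CAV2 (ENSG00000105971.15) encodes caveolin-2, which forms complexes with caveolin-1. On the HiGI diet it had 121 reads in tumor 16, 114 in tumor 20 and 68 in tumor 26, against 2 in LoGI tumor 19, 15 in tumor 27 and 5 in tumor 28. The diets did not overlap, and the lowest HiGI tumor had 5.15 times the normalized count of the highest LoGI tumor. The HiGI mean was 98.9 ± 23.1 normalized counts (SD, n = 3), and the LoGI mean was 7.13 ± 6.18 (SD, n = 3). The change on the log2 scale was -3.73, with a DESeq2 standard error of 0.43 (adjusted p = 1.16e-05, edgeR's quasi-likelihood test). LoGI tumor 27 held 15 of the 22 LoGI reads, and without this tumor the log2 fold change was -4.70 and the call was kept. The caveolin genes did not keep a fixed ratio of reads. In HiGI tumors 16, 20 and 26 there were 2.96, 2.85 and 1.49 CAV1 reads per CAV2 read. In LoGI tumors 19, 27 and 28 there were 1, 0.133 and 0.4, each resting on 2 CAV1 reads. This ratio was lower in every LoGI tumor than in any HiGI tumor, and the difference in the size of the change between both genes was not tested.

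CD44 (ENSG00000026508.20), which encodes a cell surface receptor for hyaluronan and a widely used marker of basal and stem-like prostate cells, was reduced but still well read in LoGI tumors. Its normalized count was 786, 832 and 479 in HiGI tumors 16, 20 and 26 and 258, 256 and 246 in LoGI tumors 19, 27 and 28. All LoGI values lay close together and below the lowest HiGI value, which was 1.86 times the highest LoGI value. The HiGI mean was 699 ± 191 (SD, n = 3) and the LoGI mean 253 ± 6.65 (SD, n = 3), so that LoGI tumors held 36.2% of the HiGI level. The change on the log2 scale was -1.47, with a DESeq2 standard error of 0.18 (adjusted p = 2.97e-05, edgeR's quasi-likelihood test). The coefficient of variation was 27.4% in HiGI tumors, where tumor 26 stood apart, and 2.63% in LoGI tumors. With 246, 274 and 234 reads in the LoGI tumors, counting error alone would on average give a larger value than 2.63%. The difference in spread was not tested. The count table gives 1 value per gene, and the splice forms of CD44 were not separated.

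HiGI tumor 26 was the lowest HiGI tumor on all 3 of these genes, and by a smaller margin on GSTP1 and RASSF1 too. Relative to the mean of HiGI tumors 16 and 20 it stood at 32.9% for CAV1, 64.4% for CAV2 and 59.3% for CD44, while the other 7 genes stood between 88.3% and 129% in that tumor. Without HiGI tumor 26 the log2 fold changes were -7.25 for CAV1, -3.91 for CAV2 and -1.67 for CD44, a shift that follows from leaving out the lowest HiGI tumor. They were -6.66, -3.64 and -1.37 without HiGI tumor 16, and -6.67, -3.63 and -1.32 without HiGI tumor 20.

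**Figure D2:**
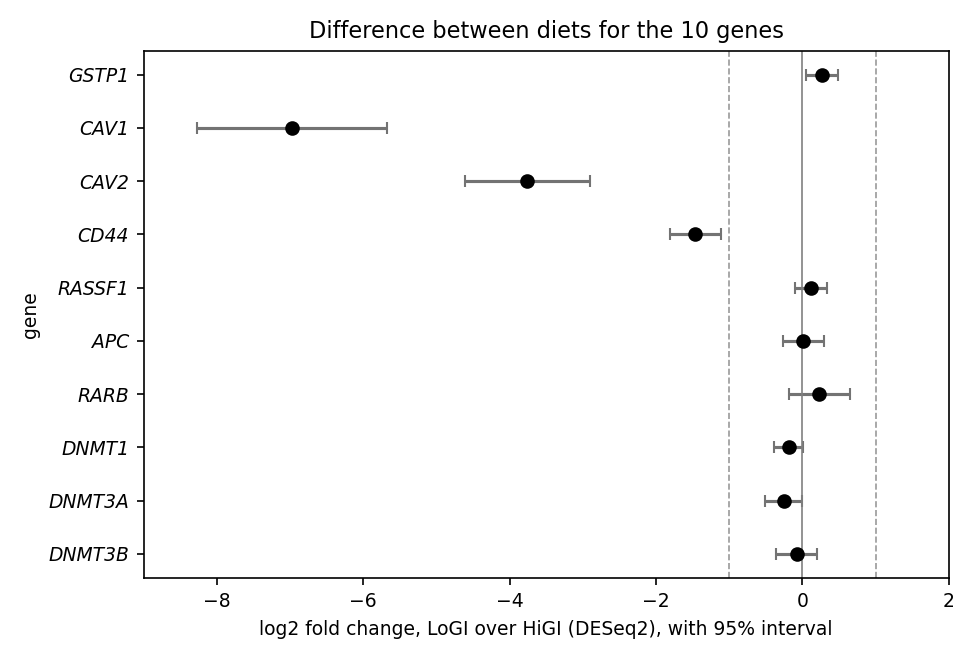
Log2 fold change of LoGI over HiGI tumors for the 10 genes (points) with 95% intervals (bars), from DESeq2; the solid line marks no difference and the dashed lines a 2-fold change in either direction. The intervals of CAV1, CAV2 and CD44 lie wholly below the dashed line at -1, and those of the other 7 genes lie wholly between the dashed lines.

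GSTP1 (ENSG00000084207.18) encodes the pi class glutathione transferase, which conjugates glutathione to reactive compounds. It was heavily read in every tumor, with 10042 reads in HiGI tumor 16, 11196 in tumor 20 and 8457 in tumor 26, and 10382 in LoGI tumor 19, 12056 in tumor 27 and 12467 in tumor 28. GSTP1 RNA was thus read on both diets, although the gene was chosen as one that methylation often silences in prostate cancer. Reads that mapped to both genomes were kept, and the share of these reads that came from mouse cells was not tested. The HiGI mean was 9784 ± 1177 normalized counts (SD, n = 3), and the LoGI mean was 11750 ± 1176 (SD, n = 3). The diets overlapped, since HiGI tumor 20 (11136) was above LoGI tumor 19 (10884). LoGI tumors differed by 0.26 on the log2 scale (adjusted p = 0.213, edgeR's quasi-likelihood test). The 95% interval of the fold from DESeq2 ran from 1.04 to 1.40, which leaves out a 2-fold rise. Across the alternatives tried the log2 fold change stayed between 0.18 and 0.37.

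RASSF1, APC and RARB had log2 fold changes of 0.11, 0.0085 and 0.23, and none of them passed the test. RASSF1 (ENSG00000068028.18) encodes a scaffold protein that links Ras signaling to the Hippo kinases. Its normalized count was 1149, 1303 and 1120 in HiGI tumors 16, 20 and 26 and 1219, 1226 and 1424 in LoGI tumors 19, 27 and 28. The diets overlapped, with a log2 fold change of 0.11 (adjusted p = 0.734, edgeR's quasi-likelihood test) and a 95% interval of the fold from 0.932 to 1.27 (DESeq2). The short and long forms of RASSF1 arise from different promoters, only 1 of which is the usual target of methylation, and the gene count does not separate them.

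APC (ENSG00000134982.17) encodes the scaffold of the complex that marks beta-catenin for destruction. Its normalized count was 608, 478 and 580 in HiGI tumors 16, 20 and 26 and 580, 634 and 462 in LoGI tumors 19, 27 and 28, so that LoGI tumors held both the highest and the lowest value. The diets differed by 0.0085 on the log2 scale (adjusted p = 0.995, edgeR's quasi-likelihood test), with a 95% interval of the fold from 0.829 to 1.23 (DESeq2). Its sign was negative, at -0.031, when libraries were scaled by their totals only, and no direction is given for it.

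RARB (ENSG00000077092.19), which encodes the beta receptor for retinoic acid, had fewer reads and a wider interval. Its normalized count was 131, 107 and 124 in HiGI tumors 16, 20 and 26 and 167, 151 and 108 in LoGI tumors 19, 27 and 28. LoGI tumors 19 and 27 were above every HiGI tumor, while LoGI tumor 28 was level with the lowest of them. The log2 fold change was 0.23 (adjusted p = 0.71, edgeR's quasi-likelihood test) and the 95% interval of the fold ran from 0.883 to 1.56 (DESeq2). RARB, with between 103 and 161 reads per tumor, was thus read on both diets.

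**Figure D3:**
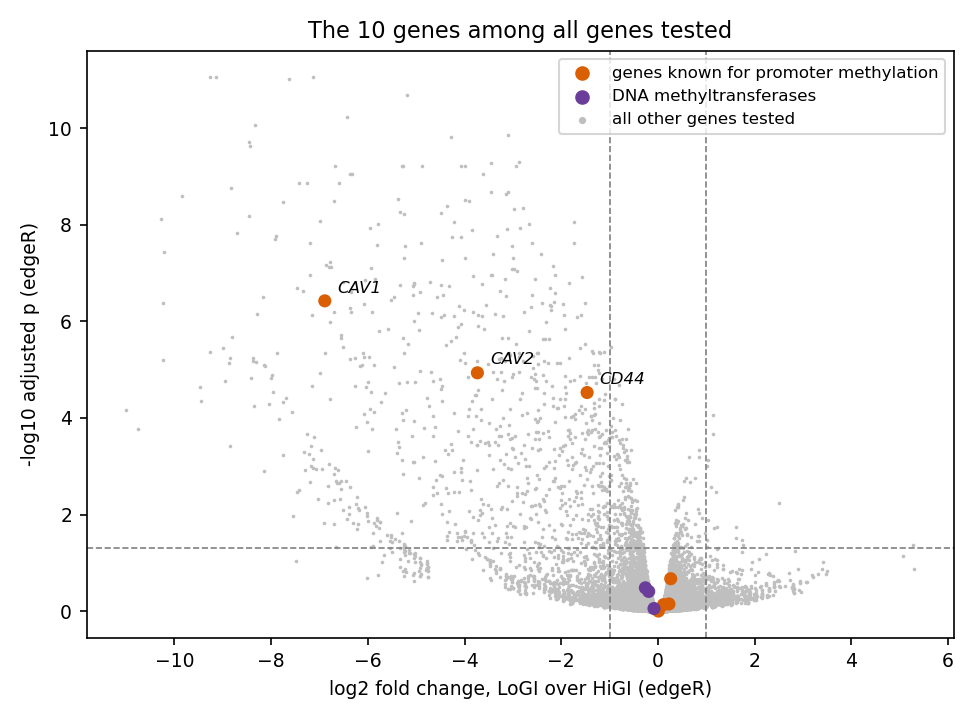
Each point is 1 of the 24545 genes tested, placed by its log2 fold change (LoGI over HiGI) and the -log10 of its adjusted p in that edgeR test; dashed lines mark the thresholds of 0.05 and of 1 in size. CAV1, CAV2 and CD44 lie past both thresholds on the left, and the other 7 genes lie under the adjusted p threshold near 0.

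Against all 24545 genes tested, the 3 genes past the threshold lay in the negative tail of the comparison. A more negative log2 fold change was held by 0.322% of the genes for CAV1, by 1.62% for CAV2 and by 4.89% for CD44. The place of CAV1 is imprecise, since the size of its change depends on the prior count. By the size of p in edgeR's quasi-likelihood test they ranked 118, 241 and 291 in that order. The other 4 genes known for promoter methylation were spread from the middle of the distribution upwards, with 50.9% of the genes below APC, 68.3% below RASSF1, 80.3% below RARB and 82.7% below GSTP1.

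The 3 methyltransferases had negative log2 fold changes of small size, and none passed the test. DNMT1 (ENSG00000130816.17), the maintenance enzyme, had a normalized count of 3238, 2838 and 3177 in HiGI tumors 16, 20 and 26 and of 2455, 2900 and 2750 in LoGI tumors 19, 27 and 28. Only HiGI tumor 20 and LoGI tumor 27 overlapped. The HiGI mean was 3084 ± 216 (SD, n = 3) and the LoGI mean 2702 ± 226 (SD, n = 3), which is -0.19 on the log2 scale (adjusted p = 0.39, edgeR's quasi-likelihood test). The 95% interval of the fold ran from 0.765 to 1.01 (DESeq2).

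DNMT3A (ENSG00000119772.18), an enzyme that sets new methylation, had a normalized count of 788, 613 and 633 in HiGI tumors 16, 20 and 26 and of 591, 573 and 536 in LoGI tumors 19, 27 and 28. Every LoGI tumor was below every HiGI tumor, though the lowest HiGI value was only 1.04 times the highest LoGI value. The HiGI mean was 678 ± 96.0 (SD, n = 3) and the LoGI mean 567 ± 27.8 (SD, n = 3). Its log2 fold change was -0.26 (adjusted p = 0.329, edgeR's quasi-likelihood test), with a 95% interval of the fold from 0.703 to 0.998 (DESeq2). HiGI tumor 16 carried much of this difference, since the log2 fold change was -0.14 without it.

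DNMT3B (ENSG00000088305.18), the other enzyme that sets new methylation, had a normalized count of 791, 737 and 985 in HiGI tumors 16, 20 and 26 and of 786, 912 and 674 in LoGI tumors 19, 27 and 28. The diets overlapped, and the highest value belonged to HiGI tumor 26. Its log2 fold change was -0.082 (adjusted p = 0.883, edgeR's quasi-likelihood test), with a 95% interval of the fold from 0.782 to 1.15 (DESeq2). Its sign turned to 0.054 without HiGI tumor 26 and to 0.021 without LoGI tumor 28, so that no direction is given for it.

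The mix of the 3 enzymes was compared between tumors as shares of their summed reads, which are not corrected for gene length. DNMT1 held 67.2%, 67.8% and 66.2% in HiGI tumors 16, 20 and 26 and 64.1%, 66.1% and 69.4% in LoGI tumors 19, 27 and 28. DNMT3A held between 13.2% and 16.4% in HiGI and between 13.1% and 15.4% in LoGI tumors, and DNMT3B between 16.4% and 20.6% in HiGI and between 17.0% and 20.8% in LoGI tumors. Each share overlapped between diets. The ratio of DNMT3B to DNMT3A reads varied among tumors of the same diet, from 1.003 in HiGI tumor 16, the lowest of all 6 tumors, to 1.56 in HiGI tumor 26, and from 1.26 in LoGI tumor 28 to 1.59 in LoGI tumor 27. Summed over the 3 genes, the normalized count was 4817, 4188 and 4795 in HiGI tumors 16, 20 and 26 and 3833, 4384 and 3960 in LoGI tumors 19, 27 and 28. LoGI tumor 27 was above HiGI tumor 20, so that the sums overlapped too.

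**Figure D4:**
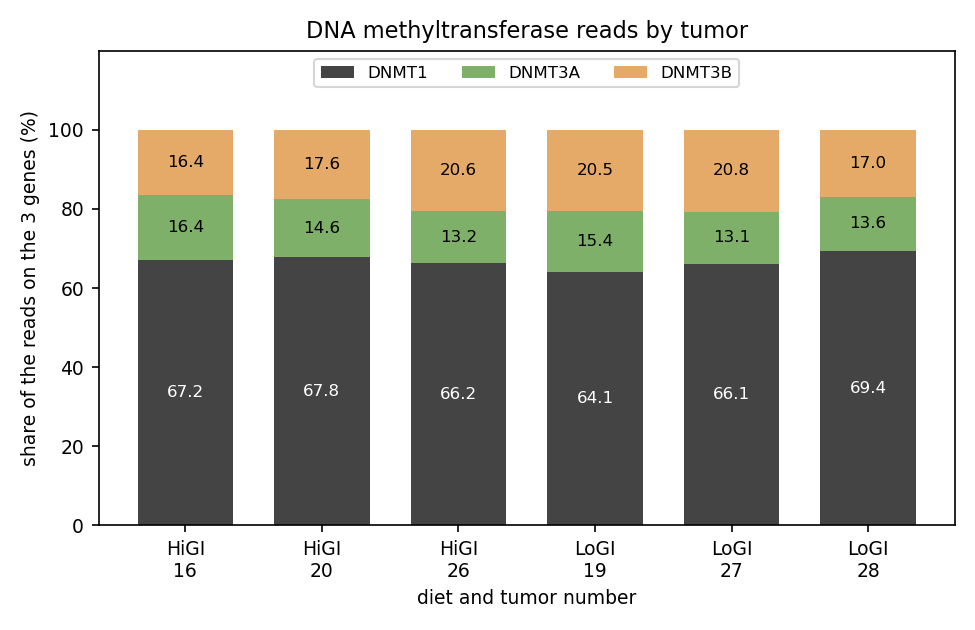
Stacked bars give the share (%) of DNMT1, DNMT3A and DNMT3B in the reads on these 3 genes for each tumor, not corrected for gene length. DNMT1 holds between 64.1% and 69.4% in all 6 tumors, and the ranges of each enzyme overlap between HiGI and LoGI.

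Side by side, the 7 genes that did not pass the test had 95% intervals of the fold that lay between 0.703 and 1.56 (DESeq2). A 2-fold change in either direction was outside each of these intervals, and smaller differences lay inside some of the intervals and outside others. A fold of 1, or no change, lay outside those of GSTP1 (1.04 to 1.40) and DNMT3A (0.703 to 0.998), neither of which passed after adjustment. An exact permutation test of any single gene over 3 against 3 tumors cannot go below p = 0.1, and none was run. The fit across all genes used edgeR with Benjamini-Hochberg adjustment, as the study did.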

How the data were processed

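Single-end reads of 75 bp came from a stranded kit. The authors used BBMap against both genomes to discard reads found in mouse alone, keeping those shared by both, ran STAR and RSEM on human GRCh38.p13, and deposited unnormalized whole-number counts for each gene. Versions, the strand setting and the rounding are not given in the sources used here. The sample records name the organism as mouse.

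Tumors, each from a different mouse, were assigned to diets by their treatment label and columns by name (0 unmatched). Genes with at least 10 reads over the 6 tumors were tested on the deposited counts with edgeR 4.0.16 in R 4.3.3 (TMM, glmQLFit, glmQLFTest, prior count 0.125, Benjamini-Hochberg), at the study's threshold; its methods name no test or filter within edgeR. Standard errors and 95% intervals (1.96 standard errors) came from DESeq2 1.42.0. The fit was tested on simulated data. Changes were planted in 200 well-read genes at a time, in equal numbers up and down. At an adjusted p under 0.05 the fit recovered 52% of the genes changed 1.5-fold, with 8 false calls. It recovered 83.5% of those changed 2-fold, with 16 false calls. These rates do not cover genes with few reads. Intervals on reads describe counting error alone, since they sum the tumors of a diet and leave out differences between tumors. Reads carried no molecular identifiers, so that these intervals may be too narrow even for counted molecules. Alternatives covered scaling (DESeq2 size factors, upper quartile, library totals), the test (DESeq2 Wald, edgeR exact), 3 other filters, a prior count of 2, and leaving out each tumor in turn.

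The 10 genes, all of them named, were chosen with earlier results of these data known, and their symbols came with their identifiers. Since 0 identifiers of the table matched the mouse names used here, pathway and marker lists, sequences, positions, lengths and reads shared with other genes were not analysed here.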

Additional observations from a re-analysis of the deposited data

How the results depend on the processing

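CAV1, CAV2 and CD44 kept their direction and their call under every alternative that tested them, and the other 7 genes passed an adjusted p of 0.05 under none of them. A filter of 10 reads in each tumor left CAV1 and CAV2 untested, so that 1 of the 10 genes was then lower past the threshold and 1 at any fold, and 300 of all genes were lower and 10 higher. Genes higher in LoGI tumors (18) numbered 32 with edgeR's exact test and 39 with at least 1 read, and between 4 and 26 with a tumor left out. Genes lower (829) numbered 947 with the exact test, 938 with at least 1 read and 678 with edgeR's own expression filter. With a tumor left out they numbered between 685 and 846. The log2 fold change of APC turned negative with library totals (-0.031), with the filter on each tumor (-0.0016), and without HiGI tumor 20 (-0.087), LoGI tumor 19 (-0.017) or LoGI tumor 27 (-0.086), with a highest value of 0.13 when a tumor was left out. That of DNMT3B turned positive without HiGI tumor 26 (0.054) or LoGI tumor 28 (0.021), with a lowest value of -0.19 when a tumor was left out. Beyond the loss of CAV1 and CAV2 to the filter on each tumor, the causes of these shifts were not tested. Of 148 values of the 10 genes under alternatives, 141 kept their direction and side of the threshold and 7 changed sign. No paired analysis was possible because the labels give the tumors no numbers shared between diets. CAV1 in LoGI tumors, at 2 reads each, was under the 3 reads taken here as the floor of detection, a chosen and not a measured limit.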
